A study of Homo sapiens with 13 samples.

Results

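Total RNA of U2OS cells, a human osteosarcoma line, was compared between a CDK12 siRNA and a control siRNA. The comparison holds 4 of the 13 libraries of the series, 2 per siRNA, chosen by their labels as total RNA without rapamycin, and it was made over all 26454 genes of the deposited expression table. Both groups were transfected for 48 h and received the mock treatment that stands beside rapamycin in the series, and the 4 titles share a code. The study paired total RNA with RNA immunoprecipitated with eIF4G, a scaffold of translation initiation, from cells given CDK12 siRNA, control siRNA, or control siRNA with rapamycin (50 ng/ml for 24 h). RNA was extracted with Trizol and freed of ribosomal RNA with a depletion kit, so transcripts without a poly(A) tail were kept. The sources used here do not give the number or sequence of the siRNAs. The labels do not say whether a group's libraries came from separate cultures. The p-values then cover only the scatter of libraries within groups, possibly a technical one, estimated over all 13 libraries of the series.

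CDK12 is a kinase that works with cyclin K and phosphorylates the carboxy-terminal domain of RNA polymerase II while the enzyme elongates. It is known for keeping transcription of long genes complete, DNA repair genes among them, and its loss or inhibition in other cells lets polymerases end transcripts early inside introns. In cycling cells, genes of DNA replication are transcribed around the entry to S phase through E2F factors. Genes of mitosis follow later through the DREAM and MMB-FOXM1 complexes, which bind a CHR element in promoters.

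Depths read from the steps of low values ran from 17193000 to 21626000 tags over the 4 libraries. Tags summed over gene bodies came to 83.4% and 83.0% of depth in control and to 81.1% and 80.8% after CDK12 siRNA. A tag where genes overlap can count more than once in these sums. Levels are deposited FPKM, tags per kilobase of gene body scaled to library depth, introns included, and no pair of libraries agreed within counting noise (chi-square per degree of freedom 5.55 in control and 4.83 after CDK12 siRNA). Changes are log2 differences ± SE from limma on scaled FPKM + 1, which understate the change of genes with low values, and percent of control and folds are ratios of mean scaled FPKM. Of the markers of a mesenchymal line, VIM, COL1A1, FN1 and SPARC were present, while COL1A2 and SP7 of the osteoblast markers, CDH1, ESRP1 and KRT19 of the epithelial markers, and CD3E, CD14, HBB, LYZ and SPI1 of the haematopoietic markers stayed under 0.05 FPKM in all 4 libraries. The 10 mesenchymal and osteoblast markers summed to 116 and 108 FPKM in control and to 63.4 and 64.8 FPKM after CDK12 siRNA, and all 6 tested ones fell, or 4 to 5 when any 1 library was left out. The 10 epithelial markers summed to 26.7 and 23.2 FPKM in control and to 29.8 and 28.7 FPKM after CDK12 siRNA, with 2 and then 3 of them at 1 FPKM or more. Of the 3 tested epithelial markers 2 were higher, 0 to 1 when any 1 library was left out, and without scaling none was higher and 1 was lower. The 10 haematopoietic markers summed to at most 1.29 FPKM in any of the 4 libraries.

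CDK12 itself measured 1.64 and 1.72 FPKM in the control libraries and 0.706 and 0.707 FPKM after CDK12 siRNA. Both treated libraries lay under both controls. Over its gene body CDK12 stood at 48.9% of control (-0.55 ± 0.05, adjusted p = 4.52e-05), a value that includes intronic tags. CDK13, the closest relative of CDK12 and also a partner of cyclin K, read 1.65 and 1.63 FPKM in the control libraries and 2.28 and 2.28 FPKM after CDK12 siRNA. It rose by 0.46 ± 0.05. CCNK, the gene of cyclin K, stayed under the filter on low values, at 0.54 and 0.596 FPKM in control and 0.725 and 0.778 FPKM after CDK12 siRNA, and was not tested.

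Among the other kinases that act on polymerase II, the values went both ways. CDK7, the kinase of the initiation factor TFIIH, rose from 0.754 and 0.911 to 1.32 and 1.47 FPKM (0.51 ± 0.10). CDK9, the kinase of the elongation factor P-TEFb, fell from 4.55 and 3.94 to 2.74 and 2.03 FPKM (-0.48 ± 0.13), and that call was lost without CDK12 siRNA replicate 2 (-0.33) or control replicate 1 (-0.41). HEXIM1, which holds P-TEFb inactive, rose from 5.39 and 6.19 to 8.01 and 8.89 FPKM (0.67 ± 0.09). Of the 13 tested members of the CDK12 and transcription kinase list, 5 rose and 2 fell, and 3 and 1 or 2 did when any 1 library was left out. Without scaling 3 of them rose and 3 fell. POLR2A, the large subunit of RNA polymerase II, rose from 2.71 and 2.47 to 3.64 and 3.44 FPKM (0.51 ± 0.06). Of 32 tested genes of polymerase II elongation and transcript end processing, 9 rose and 5 fell around a median of -0.03, while 5 rose and 11 fell without scaling and 9 rose and 10 fell with quantile normalization. NELFE, a subunit of the pausing factor NELF with more than 1 genomic copy, fell from 5.24 and 4.97 to 1.24 and 1.52 FPKM (-1.22 ± 0.10), while CTR9, a subunit of the elongation complex PAF1C, rose from 1.82 and 1.78 to 2.57 and 2.71 FPKM (0.53 ± 0.08). PCF11, a factor of cleavage and termination, rose from 3.06 and 2.86 to 3.93 and 3.64 FPKM (0.44 ± 0.07).

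Over all genes, 9908 passed the filter of 1 FPKM in at least 2 libraries of the series. At an adjusted p under 0.05, 2308 of them were higher after CDK12 siRNA (23.3%) and 1932 were lower (19.5%), around a median of 0.02. On the scale of scaled FPKM + 1, 2817 of these 4240 calls changed by under 1.5-fold. CDK12 itself is among them, since that scale understates the change of genes with low values. At least 2-fold changes on it were fewer and leaned the other way, with 164 genes higher (1.66%) and 286 lower (2.89%). With a pseudocount of 0.1 in place of 1, 434 genes were higher and 817 lower at 2-fold. Without scaling, the median was -0.10 and the split turned to 1276 higher and 2754 lower, or 98 and 393 at 2-fold. The lists that follow are read against the shares of all genes. Of the tested genes 3283 overlap another gene, and without a stated strand their reads cannot be told apart. Among the genes given with values this holds for ATG2A, BCL2L1, BUB1B, C10orf55, CCNA2, CCNK, DDIT3, EIF4G1, ERCC5, FANCI, FOSL2, FOXM1, GDF15, GULP1, LAMA1, MMP3, NELFE, NPC1, PLAU, PLK1, PRC1, PVT1, SNORA26, SNORD132, SQSTM1, TGFB2, TNFRSF10B, TXNRD1 and TYMS. In bulk RNA, fewer cells of a kind and less RNA per cell cannot be told apart.

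**Figure D1:**
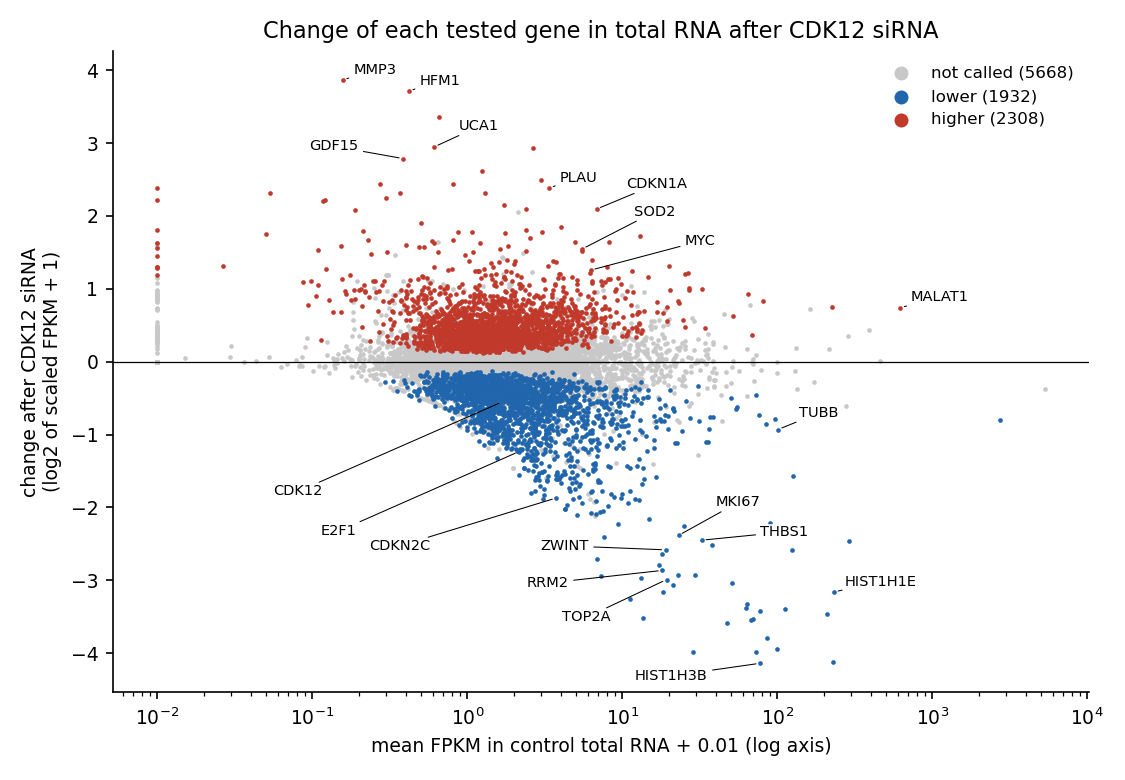
Each point is 1 of the 9908 tested genes, with its mean FPKM in control total RNA plus 0.01 on a log axis and its change after CDK12 siRNA on the log2 scale of scaled FPKM + 1. The 1932 lower genes include histone genes near -4 at high levels, and the highest rises, MMP3 and HFM1, start from low levels.

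The share of calls moved with the length of the gene body. Of genes up to 2 kb, 10.3% were higher and 9.95% lower. Between 5 and 10 kb the lower calls led, with 24.3% lower and 13.9% higher. Between 100 and 200 kb, 50.8% were higher and 14% lower, and between 200 and 500 kb 54.5% and 12.2%. The median change went from -0.10 at 2 to 5 kb to 0.20 at 200 to 500 kb. Spearman's rho of change with length was 0.16 across the 9908 genes and 0.23 across 6104 protein-coding genes with 1 copy and no overlap, where points share libraries and longer genes hold more reads, so this is a description. With the length trend removed from each library, 2212 genes were higher and 2009 lower.

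**Figure D2:**
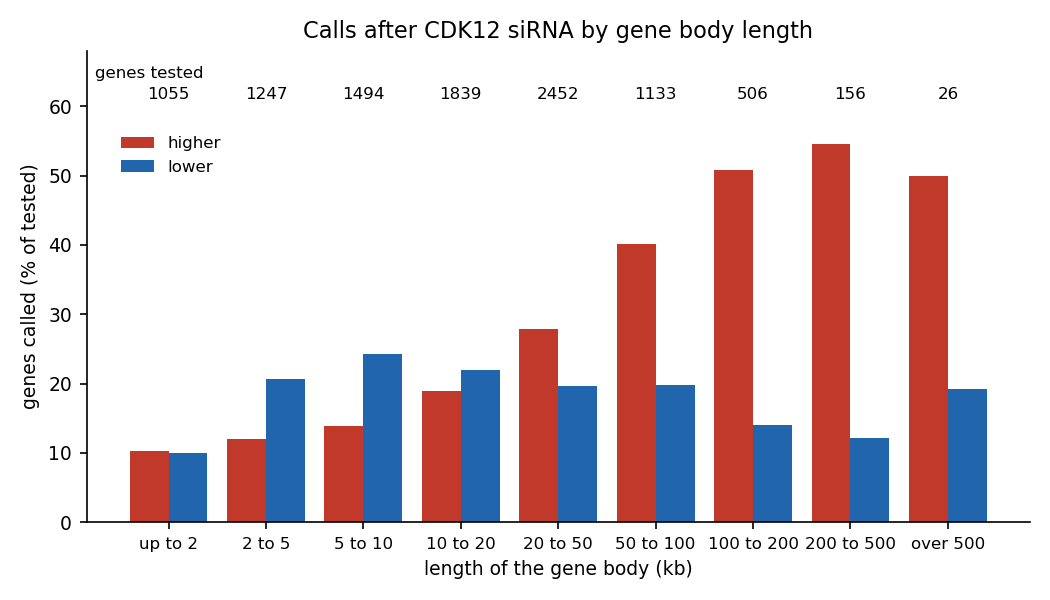
Bars give the percent of tested genes called higher or lower after CDK12 siRNA in each class of gene body length in kb, with the number tested above. Higher calls go from 10.3% up to 2 kb to 54.5% at 200 to 500 kb, and lower calls are at most 24.3%, at 5 to 10 kb.

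By kind of gene, 2059 of 8445 protein-coding genes were higher and 1746 lower. Among 1036 other noncoding RNA genes, 199 were higher and 158 lower, and among 231 small nucleolar RNAs 19 and 4. At 2-fold, protein-coding genes were lower more often, 253 against 107, and noncoding RNA genes were higher more often, 37 against 27.

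Replication-dependent histone genes held the largest falls of the comparison. These genes are transcribed in S phase, and their mRNAs end in a stem-loop in place of a poly(A) tail. Of 60 core histone genes in the table, 36 were tested and 29 fell, against 19.5% of all genes, 28 of them at least 2-fold and none rose. Their median change was -3.05. By class, 10 of 11 tested H2A, 9 of 11 H2B, 4 of 5 H3 and 6 of 9 H4 genes fell, with medians between -3.42 and -2.79. The 15 largest falls among single-copy genes at 5 FPKM or more were all core histone genes. HIST1H2AG, an H2A gene, measured 249.6 and 208 FPKM in the control libraries and 10.6 and 10.2 FPKM after CDK12 siRNA. Its treated libraries stood at 5.28% of control (-4.13 ± 0.17, adjusted p = 4.63e-07). HIST1H3B, an H3 gene, measured 90.1 and 64.8 FPKM in the control libraries and 1.8 and 4.45 FPKM after CDK12 siRNA, or -4.14 ± 0.47. The pair of treated values is uneven, yet both lie far under the controls. HIST1H2BF, an H2B gene, went from 95.1 and 75.9 to 4.71 and 4.2 FPKM (-3.79 ± 0.24). HIST1H4E, an H4 gene, went from 234 and 184 to 16.3 and 14.5 FPKM (-3.46 ± 0.29). Near-identical copies of histone genes can share reads, so single members are less certain than the list.

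Linker histone genes of S phase fell too, 3 of 3 tested, with HIST1H1E, HIST1H1A and HIST1H1C at 10.8%, 5.93% and 33% of control. Of 10 tested histone genes outside the replication-dependent lists, 4 fell, and 2 or 3 did when any 1 library was left out. H2AFX, the variant marked at DNA breaks, fell from 15.6 and 14 to 2.3 and 2.05 FPKM (-2.15 ± 0.16), and CENPA, the histone of centromeres, from 2.63 and 2.7 to 0.357 and 0.258 FPKM (-1.42 ± 0.17). Genes of histone supply and DNA methylation upkeep followed, with 9 of 13 lower. CHAF1A, a subunit of the chaperone CAF-1, fell from 1.33 and 1.13 to 0.216 and 0.233 FPKM (-0.81 ± 0.05). DNMT1, the maintenance DNA methyltransferase, fell from 2.36 and 2.27 to 0.999 and 0.977 FPKM (-0.62 ± 0.05).

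Most promoters of these histone genes hold a CCAAT box and a TATA box. Shown are stretches of the promoters of HIST1H2AG and HIST1H2BK, which are among the largest falls. Both were picked among named genes that hold the motifs, so the presence of the motifs in them was fixed by the choice. CCAAT boxes (CCAAT or ATTGG) and TATA boxes (TATAAA or TTTATA) are in capitals, from RefSeq on GRCh38.p14, on the gene's strand. The stretches lie at chr6:27132806-27133029 (plus strand) and chr6:27146868-27147093 (minus strand).
HIST1H2AG: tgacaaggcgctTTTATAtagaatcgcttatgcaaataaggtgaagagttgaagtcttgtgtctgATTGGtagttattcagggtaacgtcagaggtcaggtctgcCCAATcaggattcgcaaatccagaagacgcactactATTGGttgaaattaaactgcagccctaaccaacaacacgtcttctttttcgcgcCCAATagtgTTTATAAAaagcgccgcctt
HIST1H2BK: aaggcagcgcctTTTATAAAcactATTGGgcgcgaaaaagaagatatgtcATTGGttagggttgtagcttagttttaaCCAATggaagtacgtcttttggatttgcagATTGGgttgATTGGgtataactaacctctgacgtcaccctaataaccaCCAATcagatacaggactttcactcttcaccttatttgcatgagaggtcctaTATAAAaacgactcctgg
Of 33 core histone promoters found for the 36 tested genes, 27 held CCAAT and 25 held TATAAA on either strand. Of the 7021 promoters found for 8445 tested protein-coding genes, 38.3% held CCAAT and 5.78% held TATAAA. HIST1H2BK fell from 61.8 and 64.4 to 4.73 and 4.1 FPKM (-3.38 ± 0.21).

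**Figure D3:**
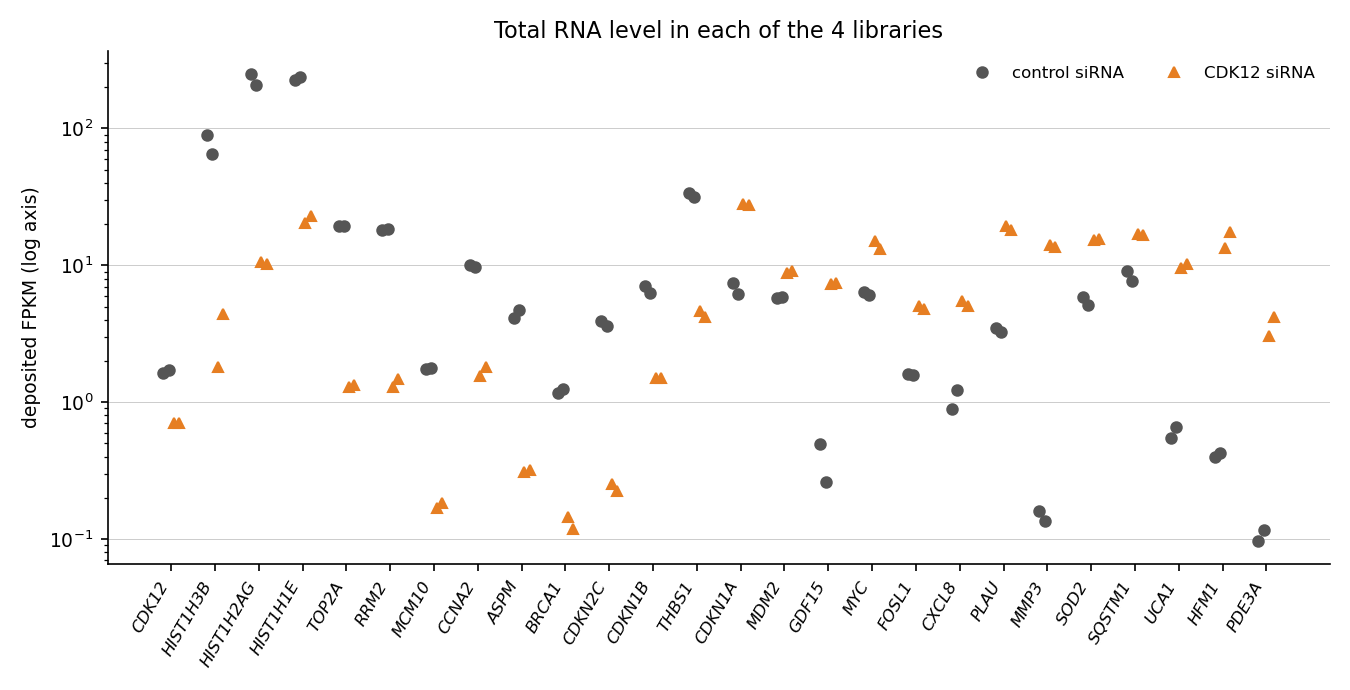
Deposited FPKM on a log axis of 26 named genes in each of the 4 total RNA libraries, with circles for control siRNA and triangles for CDK12 siRNA. For every gene shown, both treated libraries lie on 1 side of both controls. The same held for all 1932 lower calls and for 2214 of the 2308 higher calls.

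Genes that copy DNA fell as a group. Of 40 tested genes of replication licensing and the fork, 35 were lower (87.5%) and none higher, with a median of -0.80. MCM10, which helps to start the helicase, measured 1.74 and 1.79 FPKM in the control libraries and 0.168 and 0.184 FPKM after CDK12 siRNA. Both treated values lie far under both controls, at 11.6% of control (-1.18 ± 0.04). MCM4 and MCM5, subunits of the helicase ring, went from 6.74 and 6.56 to 1.52 and 1.65 FPKM (-1.42 ± 0.06) and from 3.15 and 3 to 0.621 and 0.549 FPKM (-1.27 ± 0.08). CDC45, which completes the active helicase, fell to 14% of control (-1.04 ± 0.05).

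Nucleotide supply for S phase was split. Of 18 tested genes, 10 fell and 1 rose, with a median of -0.32. RRM2, the S-phase subunit of ribonucleotide reductase, measured 18 and 18.3 FPKM in the control libraries and 1.29 and 1.47 FPKM after CDK12 siRNA, or 8.86% of control (-2.87 ± 0.13). TYMS, thymidylate synthase, fell from 6.67 and 6.21 to 1.46 and 1.34 FPKM (-1.50 ± 0.13), and TK1, thymidine kinase, from 3.13 and 2.89 to 0.391 and 0.275 FPKM (-1.52 ± 0.15). The 1 member that rose was RRM2B, the p53-induced subunit of the same reductase, from 4.7 and 4.62 to 8.17 and 7.89 FPKM (0.87 ± 0.12), a gene chosen after its values were seen.

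In the list of G1 and S cyclins, their kinases and E2F factors, 12 of 20 fell and 1 rose. CCNA2, cyclin A, fell from 10 and 9.67 to 1.55 and 1.8 FPKM (-1.87 ± 0.13). E2F1, an activator of S-phase genes, measured 2.54 and 1.75 FPKM in the control libraries and 0.254 and 0.282 FPKM after CDK12 siRNA, a change of -1.23 ± 0.11 (adjusted p = 2.5e-05). Its control values differ from each other, and both exceed the treated ones. SKP2, the ubiquitin ligase subunit that degrades p27, fell from 2.63 and 2.65 to 0.996 and 0.936 FPKM (-0.77 ± 0.05). CCND1, cyclin D, measured 10.8 and 11.1 FPKM in the control libraries and 8.76 and 8.79 FPKM after CDK12 siRNA, and its change of -0.09 ± 0.12 did not pass (adjusted p = 0.574). MYBL2, the MYB subunit of the MMB complex, fell from 2.88 and 2.42 to 0.377 and 0.348 FPKM (-1.34 ± 0.09). CDT1, a licensing factor, fell from 1.93 and 2.19 to 0.223 and 0.318 FPKM (-1.20 ± 0.07). FOXM1, the transcription factor of late cell cycle genes, fell from 5.25 and 5.26 to 0.78 and 0.765 FPKM (-1.71 ± 0.10).

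Genes of mitosis fell in nearly every list made for them. Over the 88 tested genes of mitotic kinases, the chromosomal passenger complex and spindle checkpoint, centromere and spindle, 80 were lower (90.9%), 48 of them at least 2-fold, and 1 was higher, with a median of -1.05. All 24 genes of spindle assembly and cytokinesis fell, with a median of -1.38, and 23 or 24 did when any 1 library was left out. ASPM, which organises spindle poles, measured 4.16 and 4.68 FPKM in the control libraries and 0.307 and 0.322 FPKM after CDK12 siRNA. That is 8.27% of control (-1.97 ± 0.07, adjusted p = 2.61e-07). TPX2, an activator of Aurora A at the spindle, fell from 6.13 and 5.79 to 1.16 and 1.2 FPKM (-1.54 ± 0.06). PRC1, which bundles the microtubules of the midzone, fell from 5.45 and 5.23 to 0.82 and 0.84 FPKM (-1.68 ± 0.08).

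Of 16 mitotic cyclins and entry kinases, 15 fell. PLK1, a kinase of mitotic entry and cytokinesis, measured 3.82 and 3.76 FPKM in the control libraries and 0.539 and 0.542 FPKM after CDK12 siRNA (-1.54 ± 0.10). NEK2, which splits centrosomes, fell from 3.62 and 3.84 to 0.534 and 0.484 FPKM (-1.56 ± 0.08). Of 20 genes of the chromosomal passenger complex and spindle checkpoint, 16 fell and 1 rose. ZWINT, a kinetochore protein of the checkpoint, measured 20.4 and 17.6 FPKM in the control libraries and 2.16 and 1.83 FPKM after CDK12 siRNA (-2.58 ± 0.11), and BUB1B, the checkpoint protein BubR1, fell to 15.9% of control (-1.08 ± 0.05). NUF2, of the microtubule-binding NDC80 complex and counted in the same list, stood at 15.8% (-1.36 ± 0.08). Centromere and kinetochore genes were lower in 25 of 28, among them HJURP, the chaperone of CENPA, at 12.4% of control (-1.94 ± 0.09).

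Kinesins, the motors of microtubules, did not move as a whole. Of 21 tested, 13 fell and 4 rose, and 2 or 3 rose when any 1 library was left out. Mitotic motors were among those that fell. KIF11, which pushes spindle poles apart, fell from 2.83 and 2.83 to 0.445 and 0.426 FPKM (-1.33 ± 0.06), and KIF2C, which takes apart microtubule ends at kinetochores, from 4.76 and 4.39 to 0.661 and 0.747 FPKM (-1.60 ± 0.07). Cohesin and condensin genes were lower in 15 of 20 and higher in 2. TOP2A, the topoisomerase listed with them, measured 19.3 and 19.3 FPKM in the control libraries and 1.3 and 1.33 FPKM after CDK12 siRNA, with the smallest adjusted p of the named genes (-2.99 ± 0.08, adjusted p = 1.46e-07). MKI67, the proliferation marker that coats mitotic chromosomes, fell from 23.3 and 22.9 to 3.32 and 2.87 FPKM (-2.38 ± 0.13), and ESCO2, which seals cohesin in S phase, from 1.26 and 1.29 to 0.149 and 0.132 FPKM (-0.96 ± 0.05). In the anaphase-promoting complex list 8 of 15 fell and 1 rose. Its mitotic activator CDC20 fell from 10.2 and 8.59 to 1.02 and 1.03 FPKM (-2.23 ± 0.21), and its ubiquitin-conjugating enzyme UBE2C from 11.2 and 10.7 to 1.71 and 1.9 FPKM (-1.93 ± 0.17). Centrosome and centriole genes were lower in 15 of 25 by smaller sizes, with a median of -0.32.

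Most promoters of mitotic genes hold a CHR element. Shown are stretches of the promoters of ASPM, KIFC1 and PRC1, which serve the spindle, and of TOP2A. These genes too were picked among named ones that hold the motifs. CCAAT boxes (CCAAT or ATTGG) and CHR elements (TTTGAA with its reverse complement TTCAAA, and TTTAAA) are in capitals, from RefSeq on GRCh38.p14, on the gene's strand. The stretches lie at chr1:197146659-197146815 (minus strand), chr6:33391736-33391844 (plus strand), chr15:90994538-90994600 (minus strand) and chr17:40417933-40418146 (minus strand).
ASPM: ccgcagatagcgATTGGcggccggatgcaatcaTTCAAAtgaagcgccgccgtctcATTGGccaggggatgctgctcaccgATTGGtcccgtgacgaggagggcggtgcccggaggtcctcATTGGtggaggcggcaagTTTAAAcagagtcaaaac
KIFC1: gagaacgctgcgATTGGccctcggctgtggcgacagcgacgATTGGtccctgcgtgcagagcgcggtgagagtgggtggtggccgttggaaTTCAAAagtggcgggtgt
PRC1: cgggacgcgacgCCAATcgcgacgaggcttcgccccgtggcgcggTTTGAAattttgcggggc
TOP2A: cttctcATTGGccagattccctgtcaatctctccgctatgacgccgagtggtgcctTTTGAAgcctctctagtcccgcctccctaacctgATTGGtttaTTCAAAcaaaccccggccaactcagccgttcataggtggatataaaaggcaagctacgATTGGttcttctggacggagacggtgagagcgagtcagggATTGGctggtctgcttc
In promoters of 20 of the 24 spindle genes, 17 held a CHR element on either strand and 15 held both motifs. Over the 71 promoters found for the 88 mitotic genes, 64.8% held a CHR element and 49.3% both motifs. The same shares over the 7021 promoters of protein-coding genes were 15.9% and 6.99%, and 45.5% of the core histone promoters held a CHR element. None of the 33 promoters found for the 40 replication genes held a CHR element, while 14 of them held an E2F motif (TTTGGCGC or TTTCCCGC on either strand), against 1 of 20 spindle promoters and 3.93% of all. The stretch of CLSPN, the adaptor of the replication checkpoint and picked in the same way, shows CCAAT boxes and the E2F motif in capitals. It lies at chr1:35769965-35770109 (minus strand).
CLSPN: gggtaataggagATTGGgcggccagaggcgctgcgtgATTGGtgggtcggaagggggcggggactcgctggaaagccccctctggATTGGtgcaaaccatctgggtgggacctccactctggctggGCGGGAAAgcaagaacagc
CLSPN measured 3.08 and 3.17 FPKM in the control libraries and 0.408 and 0.36 FPKM after CDK12 siRNA (-1.50 ± 0.11). For 230 of the 286 genes that fell at least 2-fold a promoter was found, and 41.3% of these held a CHR element. The share was 24.4% of 90 promoters found for the 164 genes that rose at least 2-fold. Over the 7555 promoters of all tested genes it was 16.4%. A match is a string of letters, not a site, and these lists were drawn up with earlier results of these data known.

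**Figure D4:**
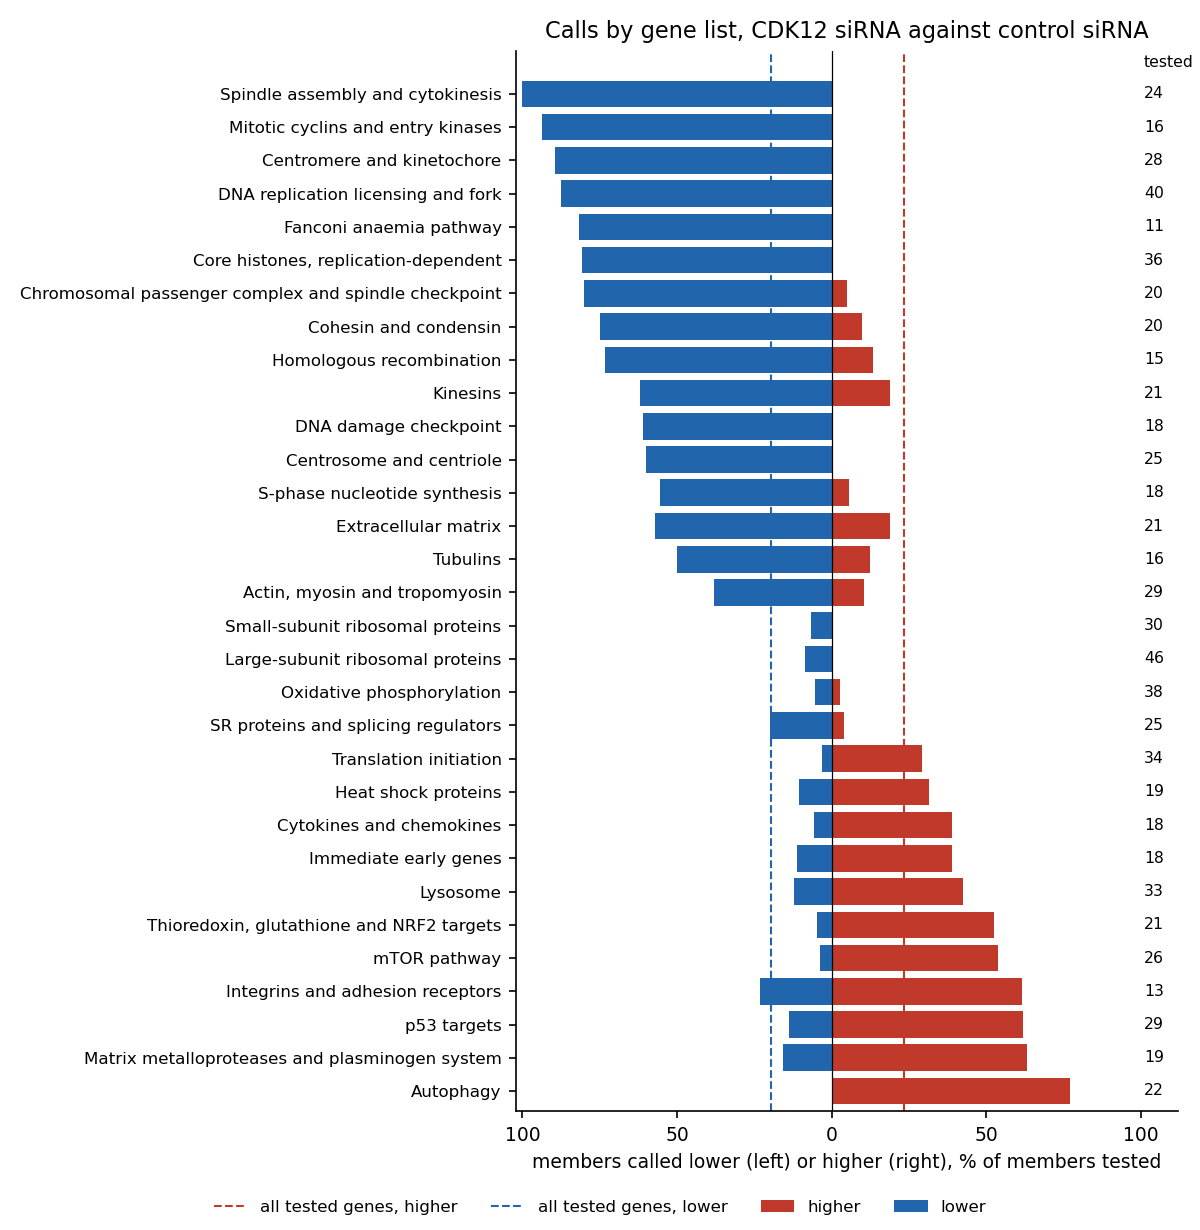
For 31 gene lists, bars give the percent of tested members called lower to the left and higher to the right after CDK12 siRNA, with the number tested at the right edge. Dashed lines mark the shares over all tested genes, 19.5% lower and 23.3% higher.

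DNA repair genes, for which CDK12 is best known, fell in most lists. Homologous recombination repairs breaks from the sister chromatid, and 11 of its 15 tested genes fell while 2 rose. BRCA1, its large scaffold and ubiquitin ligase, measured 1.16 and 1.25 FPKM in the control libraries and 0.146 and 0.118 FPKM after CDK12 siRNA. Both treated values are under both controls, at 12.7% of control (-0.92 ± 0.05, adjusted p = 1.53e-06). BRCA2, a mediator of recombination, fell from 1.17 and 1.15 to 0.238 and 0.277 FPKM (-0.72 ± 0.05), and BARD1, the partner of BRCA1, from 1.47 and 1.53 to 0.229 and 0.235 FPKM (-0.96 ± 0.09). EXO1, a nuclease that resects DNA ends, stood at 15.4% of control (-1.10 ± 0.07). Of 11 Fanconi anaemia genes, which repair crosslinks, 9 fell and none rose. FANCI fell from 2.68 and 2.83 to 0.4 and 0.39 FPKM (-1.35 ± 0.06), and BRIP1, a helicase with a body of 184 kb, from 1.92 and 1.98 to 0.299 and 0.306 FPKM (-1.11 ± 0.06).

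In the DNA damage checkpoint list, 11 of 18 fell and none rose. CHEK1, the kinase below ATR, measured 1.04 and 1.12 FPKM in the control libraries and 0.475 and 0.527 FPKM after CDK12 siRNA, a change of -0.39 ± 0.07 (adjusted p = 0.00226). TOPBP1, an activator of ATR, fell from 2.82 and 2.76 to 1.39 and 1.34 FPKM (-0.55 ± 0.05). Repair outside replication was mixed. In the mismatch, base and nucleotide excision list 10 of 20 fell and 3 rose, or 6 to 8 and 2 or 3 when any 1 library was left out. ERCC5, a nuclease of nucleotide excision, rose from 1.44 and 1.26 to 1.94 and 1.78 FPKM (0.43 ± 0.06). In non-homologous end joining, 3 of 7 fell and 1 rose, a rise that was lost when any 1 library was left out, and PRKDC, its kinase, fell from 3.56 and 3.52 to 2.09 and 2.14 FPKM (-0.39 ± 0.06).

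Brakes of the cell cycle moved in opposite directions. CDKN1A, the inhibitor p21, measured 7.41 and 6.22 FPKM in the control libraries and 27.9 and 27.8 FPKM after CDK12 siRNA. Its treated libraries stood 4.75-fold above control (2.09 ± 0.16, adjusted p = 1.01e-05). CDKN1B, the inhibitor p27, measured 7.06 and 6.28 FPKM in the control libraries and 1.51 and 1.51 FPKM after CDK12 siRNA, or 26.4% of control (-1.47 ± 0.14). CDKN2C, the inhibitor p18 of CDK4 and CDK6, went from 3.91 and 3.57 to 0.253 and 0.225 FPKM (-1.87 ± 0.11). CDKN3, a phosphatase of CDKs that peaks in mitosis, went from 2.14 and 2.19 to 0.289 and 0.333 FPKM (-1.20 ± 0.16). The other 3 tested inhibitors of the list did not pass.

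Most genes of the p53 target list rose. Of 29 tested, 18 were higher and 4 lower, with a median of 0.58, and the same number rose when any 1 library was left out. MDM2, a ubiquitin ligase, rose from 5.79 and 5.87 to 8.82 and 9.11 FPKM (0.74 ± 0.07). ZMAT3, an RNA-binding target, rose from 1.65 and 1.84 to 3.43 and 3.42 FPKM (0.86 ± 0.06), and TIGAR, which lowers glycolysis, from 2.03 and 1.94 to 3.77 and 3.61 FPKM (0.82 ± 0.06). TNFRSF10B, a death receptor, rose from 1.72 and 1.59 to 3.4 and 3.21 FPKM (0.86 ± 0.06).

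Regulators of apoptosis showed no common direction, with 5 of 20 higher and 3 lower, or 3 to 4 and 1 to 2 when any 1 library was left out, and 3 and 4 without scaling. BCL2L1, whose product BCL-XL blocks death, rose from 3.71 and 3.7 to 9.49 and 9.67 FPKM (1.36 ± 0.07). BAK1, which opens mitochondria, rose from 0.511 and 0.489 to 1.04 and 1.09 FPKM (0.57 ± 0.08), and BCL2L11, the activator BIM, fell from 1.98 and 2.02 to 0.846 and 0.78 FPKM (-0.62 ± 0.06).

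Among immediate early genes, 7 of 18 rose and 2 fell, or 4 to 6 and 1 or 2 when any 1 library was left out. Without scaling 5 of them rose and 4 fell. MYC, the growth regulator, measured 6.41 and 6.11 FPKM in the control libraries and 15 and 13.3 FPKM after CDK12 siRNA (1.26 ± 0.10). FOSL1, an AP-1 subunit, rose from 1.61 and 1.58 to 5.07 and 4.76 FPKM (1.36 ± 0.14), while FOSL2, of the same family, fell from 6.99 and 6.55 to 2.15 and 2.05 FPKM (-1.17 ± 0.08). Cytokines and chemokines were higher in 7 of 18 and lower in 1, in each case with any 1 library left out as well. CXCL8, the neutrophil chemokine interleukin-8, measured 0.89 and 1.22 FPKM in the control libraries and 5.45 and 5.04 FPKM after CDK12 siRNA (1.78 ± 0.16), and CCL20, a chemokine of lymphocytes and dendritic cells, 0.502 and 0.286 FPKM in the control libraries and 3.68 and 2.09 FPKM after CDK12 siRNA (1.60 ± 0.18). GDF15, a stress cytokine and the largest rise of the list, measured 0.492 and 0.26 FPKM in the control libraries and 7.36 and 7.44 FPKM after CDK12 siRNA, a 23-fold difference (2.79 ± 0.63, adjusted p = 0.00596). TGFB2, a growth factor of the TGF-beta family, was the 1 that fell, from 4.16 and 4.36 to 1.9 and 1.78 FPKM (-0.74 ± 0.09).

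Most proteases of the cell surroundings were higher. Of 19 tested matrix metalloproteases and plasminogen system genes, 12 were higher (63.2%) and 3 lower, with a median of 0.33, and 8 to 10 were higher when any 1 library was left out. MMP3, stromelysin, measured 0.16 and 0.135 FPKM in the control libraries and 14 and 13.7 FPKM after CDK12 siRNA. It had the largest rise of the named genes (3.87 ± 0.59, adjusted p = 0.000692), and its body overlaps another gene. PLAU, the urokinase that activates plasminogen, measured 3.47 and 3.27 FPKM in the control libraries and 19.5 and 18.2 FPKM after CDK12 siRNA (2.38 ± 0.15). C10orf55, which overlaps PLAU, rose with it (2.14 ± 0.13). ADAM19, a membrane protease, rose from 1.49 and 1.35 to 3.97 and 3.87 FPKM (1.19 ± 0.07).

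Matrix proteins went the other way, with 12 of 21 lower and 4 higher, or 9 to 10 and 2 to 4 when any 1 library was left out. THBS1, the matrix glycoprotein thrombospondin, measured 34 and 31.3 FPKM in the control libraries and 4.65 and 4.2 FPKM after CDK12 siRNA, or 15.7% of control (-2.45 ± 0.12). FN1, fibronectin, fell from 7.86 and 6.95 to 3.41 and 3.03 FPKM (-0.82 ± 0.10), and COL1A1, a chain of type I collagen, from 17.8 and 15.4 to 7.25 and 7.28 FPKM (-0.89 ± 0.10). LAMA1, a laminin chain, rose from 0.587 and 0.55 to 1.76 and 1.72 FPKM (0.94 ± 0.05). FN1 and COL1A1 are also among the 10 mesenchymal and osteoblast markers, whose sum went from 108 to 116 FPKM in control to 63.4 to 64.8 FPKM, and the part of these markers in the fall of the list was not tested. Receptors of the matrix rose, with 8 of 13 integrins and adhesion receptors higher and 3 lower. ITGA6, a laminin receptor chain, rose from 1.32 and 1.26 to 3.6 and 3.69 FPKM (1.18 ± 0.08), and ITGA2, a collagen receptor chain, from 0.414 and 0.426 to 1.77 and 1.85 FPKM (1.12 ± 0.06). L1CAM, a neural adhesion molecule, fell from 4.15 and 3.09 to 0.71 and 0.681 FPKM (-1.33 ± 0.08).

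The cytoskeleton was lower in part. Of 16 tubulin genes and regulators, 8 fell and 2 rose, or 6 to 8 and at most 1 when any 1 library was left out. TUBB, a beta-tubulin with more than 1 genomic copy, measured 108 and 94 FPKM in the control libraries and 43.9 and 46.2 FPKM after CDK12 siRNA (-0.93 ± 0.12). STMN1, stathmin, which takes tubulin out of microtubules, fell from 24.5 and 25.8 to 3.69 and 4 FPKM (-2.25 ± 0.18). In the actin, myosin and tropomyosin list 11 of 29 fell and 3 rose. TPM1, a tropomyosin, fell from 10.3 and 9.76 to 3.26 and 3.33 FPKM (-1.19 ± 0.13), and FLNC, a filamin, rose from 6.79 and 5.88 to 13.7 and 11.8 FPKM (1.11 ± 0.12). Targets of YAP and TEAD, which read tension, went both ways, with 5 of 15 higher and 7 lower. ANKRD1 rose from 26.2 and 27.9 to 47.4 and 46.2 FPKM (0.98 ± 0.14), and AXL, a receptor kinase, fell from 4.79 and 4.58 to 1.96 and 1.88 FPKM (-0.81 ± 0.09).

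Genes against oxidants and metals rose in part. Of 21 thioredoxin, glutathione and NRF2 targets, 11 were higher and 1 lower, with a median of 0.47. When any 1 library was left out 8 to 10 were higher, and without scaling 9. The median was 0.25 over the 15 with 1 copy and no overlap. SOD2, the superoxide dismutase of mitochondria, measured 5.84 and 5.16 FPKM in the control libraries and 15.4 and 15.6 FPKM after CDK12 siRNA (1.55 ± 0.10). HMOX1, haem oxygenase, rose from 0.69 and 0.514 to 1.82 and 1.92 FPKM (0.98 ± 0.11), SRXN1, sulfiredoxin, from 2.37 and 1.93 to 4.55 and 5.08 FPKM (1.06 ± 0.12), and TXNRD1, thioredoxin reductase, from 3.64 and 3.54 to 6.92 and 7.06 FPKM (0.99 ± 0.07). Metallothioneins bind zinc and copper, and 3 of 4 tested rose, or 2 to 3 when any 1 library was left out. Another 8 of the 12 in the list were not tested. MT2A measured 25.2 and 25.8 FPKM in the control libraries and 52.7 and 51 FPKM after CDK12 siRNA (1.21 ± 0.22).

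Chaperone genes did not move together. Heat shock genes were higher in 6 of 19 and lower in 2, with 2 or 3 higher when any 1 library was left out, and without scaling 2 were higher and 4 lower. HSPB8, a small heat shock protein, rose from 1.5 and 1.4 to 4.31 and 4.46 FPKM (1.31 ± 0.07), and HSP90AA1, the inducible HSP90, fell from 40.7 and 36.2 to 19.6 and 18.5 FPKM (-0.77 ± 0.11). In the endoplasmic reticulum list 5 of 22 rose and 2 fell, 3 rose when any 1 library was left out, and 1 rose and 2 fell without scaling. Targets of ATF4, the factor of the amino acid response, were higher in 7 of 18 and lower in 2, or 4 to 6 and 1 or 2 when any 1 library was left out, and 4 and 3 without scaling. DDIT3, the factor CHOP, rose from 3.83 and 3.34 to 4.78 and 5.3 FPKM (0.58 ± 0.12), and PHGDH, of serine synthesis, fell from 1.7 and 1.43 to 0.355 and 0.377 FPKM (-0.83 ± 0.08).

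Autophagy genes had the highest share of rises of any list, 17 of 22 (77.3%) against 23.3% of all genes, with a median of 0.37. With any 1 library left out 14 rose, and none fell. On the scale of scaled FPKM + 1, which understates the change of genes with low values, 1 member rose at least 2-fold. That was SQSTM1, the cargo receptor p62, with 9.05 and 7.7 FPKM in the control libraries and 17 and 16.7 FPKM after CDK12 siRNA (1.14 ± 0.11). RB1CC1, a subunit of the kinase complex that starts autophagosomes, rose from 2.65 and 2.75 to 4.22 and 4.29 FPKM (0.68 ± 0.06), and ATG2A, a lipid transfer protein of their growth, from 0.663 and 0.664 to 1.45 and 1.56 FPKM (0.72 ± 0.07). Of 33 lysosome genes, 14 rose and 4 fell. ATP6V1B2, a subunit of the proton pump, rose from 2.04 and 2.01 to 4.4 and 4.02 FPKM (0.96 ± 0.11), and NPC1, a cholesterol exporter, from 0.525 and 0.54 to 1.6 and 1.51 FPKM (0.86 ± 0.05). CTSZ, a cathepsin, fell from 8.41 and 7.33 to 3.82 and 3.73 FPKM (-0.71 ± 0.09).

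Of 26 genes of the mTOR pathway, the growth signalling that rapamycin inhibits, 14 rose and 1 fell. RICTOR, a subunit of mTORC2, rose from 1.68 and 1.82 to 2.51 and 2.62 FPKM (0.53 ± 0.06). RRAGC, a GTPase that brings mTORC1 to lysosomes, rose from 1.21 and 1.49 to 2.28 and 2.26 FPKM (0.63 ± 0.07), and SESN2, a leucine sensor, from 0.763 and 0.584 to 1.22 and 1.34 FPKM (0.57 ± 0.07). PIK3CA, a catalytic subunit of PI3 kinase, rose from 1.03 and 1.09 to 1.6 and 1.72 FPKM (0.50 ± 0.05). Without scaling 13 autophagy, 12 lysosome and 9 mTOR genes were higher.

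Genes of the translation machinery moved little. Of 34 translation initiation genes 10 rose and 1 fell, 5 or 6 rose when any 1 library was left out, and 3 without scaling. EIF4G1, the protein immunoprecipitated elsewhere in the study, measured 26.5 and 24.5 FPKM in the control libraries and 31 and 30.4 FPKM after CDK12 siRNA. Its rise of 0.47 ± 0.12 (adjusted p = 0.0105) was lost without CDK12 siRNA replicate 1 (0.47), CDK12 siRNA replicate 2 (0.48) or control replicate 2 (0.44), and without scaling (0.26). EIF4E, which binds the cap, rose from 1.27 and 1.45 to 1.86 and 1.78 FPKM (0.40 ± 0.06), and EIF5B, which joins the subunits, from 2.67 and 2.79 to 4.2 and 4.6 FPKM (0.71 ± 0.14). Of 46 tested proteins of the large ribosomal subunit 4 fell and none rose, and of 30 of the small subunit 2 fell, shares below the 19.5% of all genes. When any 1 library was left out, between 0 and 2 and between 0 and 1 of them fell. Of 38 oxidative phosphorylation genes 1 rose and 2 fell.

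The glycolysis and cholesterol lists had no lean that held without scaling. Glycolysis genes were higher in 5 of 17 and lower in 1, or 4 and 4 without scaling, with HK2, a hexokinase, up from 0.338 and 0.388 to 1.26 and 1.25 FPKM (0.84 ± 0.05). Of 23 cholesterol synthesis genes 6 rose and 3 fell, 2 or 3 rose when any 1 library was left out, and 1 rose and 6 fell without scaling. HMGCS1, of the mevalonate pathway, rose from 7.28 and 7.41 to 14.1 and 13.9 FPKM (1.05 ± 0.12), and EBP, a later enzyme, fell from 6.65 and 6.36 to 1.55 and 1.56 FPKM (-1.41 ± 0.10). Splicing regulators were lower in 5 of 25 and higher in 1, with 1 to 3 lower when any 1 library was left out, and interferon response genes higher in 3 of 15 and lower in 4. PER3, of the circadian clock, fell from 1.49 and 1.47 to 0.379 and 0.404 FPKM (-0.76 ± 0.05) in a list with 4 of 9 higher and 2 lower, or 1 to 3 and 1 or 2 when any 1 library was left out, and 2 and 3 without scaling. Of 12 growth factors and receptors 5 rose and 4 fell, or 3 and 4 without scaling. The called ones include MET, the receptor of hepatocyte growth factor, up from 1.56 and 1.56 to 2.64 and 2.64 FPKM (0.66 ± 0.06), and BMP4, a bone morphogenetic protein, down from 7.39 and 6.53 to 1.3 and 1.29 FPKM (-1.66 ± 0.08).

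Some of the largest rises were of genes outside the lists that were low in control cells. HFM1, a helicase of meiosis with a body of 144 kb, measured 0.396 and 0.426 FPKM in the control libraries and 13.5 and 17.4 FPKM after CDK12 siRNA. Its treated libraries stood 43.7-fold above control (3.72 ± 0.45, adjusted p = 0.000161). ARL14, a small GTPase, measured 0.641 and 0.647 FPKM in the control libraries and 13.4 and 14.3 FPKM after CDK12 siRNA (3.36 ± 0.31). KISS1, the precursor of kisspeptin, rose from 0.715 and 0.489 to 3.55 and 3.28 FPKM (1.62 ± 0.17). G0S2, an inhibitor of a fat lipase, rose from 0.052 and 0.478 to 5.79 and 4.42 FPKM (2.44 ± 0.59), and that call was lost without CDK12 siRNA replicate 1 (2.28) or control replicate 1 (2.19).

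Among genes over 100 kb, the largest rises besides HFM1 and the pseudogene ANKRD30BL were of PDE3A, PDE7B and GULP1. PDE3A, a phosphodiesterase of cyclic nucleotides with a body of 315 kb, measured 0.097 and 0.117 FPKM in the control libraries and 3.04 and 4.22 FPKM after CDK12 siRNA (2.20 ± 0.17). PDE7B, of the same family, measured 0.186 and 0.172 FPKM in the control libraries and 3.51 and 3.48 FPKM after CDK12 siRNA (2.08 ± 0.07). GULP1, an adaptor of engulfment, went from 0.225 and 0.235 to 2.12 and 2.1 FPKM (1.47 ± 0.05). These low genes rest on many reads because of their length, 20375 and 22861 for PDE3A in the treated libraries. The largest falls of long genes were of PRR16, BRIP1, LOC100288637, MELK and ROR1. PRR16, which raises protein synthesis and cell size, fell from 1.87 and 1.99 to 0.236 and 0.236 FPKM (-1.19 ± 0.06). MELK, a kinase of dividing cells, fell from 1.78 and 1.75 to 0.296 and 0.296 FPKM (-1.03 ± 0.05).

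Of 14 nuclear noncoding RNAs 5 rose and 4 fell, around a median of -0.14, and without scaling 4 rose and 5 fell. UCA1, a long noncoding RNA described in bladder cancer, measured 0.544 and 0.658 FPKM in the control libraries and 9.55 and 10.3 FPKM after CDK12 siRNA (2.95 ± 0.21). MALAT1, an abundant RNA of nuclear speckles, measured 614 and 630.1 FPKM in the control libraries and 868 and 923 FPKM after CDK12 siRNA (0.74 ± 0.13), a rise that was lost with quantile normalization (0.00). PVT1, the noncoding neighbour of MYC, rose from 4.06 and 4.01 to 6.58 and 6.61 FPKM (0.78 ± 0.10), and HOTAIR, of the HOXC cluster, fell from 1.05 and 1.33 to 0.263 and 0.253 FPKM (-0.74 ± 0.08). Small nucleolar RNAs had few reads. SNORA26 rose from 0.454 and 1.15 to 8.94 and 6.25 FPKM (2.44 ± 0.34), which is 23 and 13 reads in the treated libraries. SNORD132 was listed at 0 in both treated libraries and at 4.44 and 5.61 FPKM in control.

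The eIF4G immunoprecipitation of the same siRNA conditions shares no library with this comparison, and its 3 control and 2 CDK12 siRNA libraries were fitted in the same model. There 1354 genes were higher (13.7%) and 1820 lower (18.4%) after CDK12 siRNA. Of the genes lower in total RNA, 620 were also lower in the immunoprecipitate, 32.1% of the total RNA calls and 34.1% of its own calls. Higher in both were 421 genes, 18.2% and 31.1%. Another 299 genes were higher in total RNA and lower in the immunoprecipitate, 12.95% of the genes higher in total RNA. That share is under the 18.4% of all genes lower in the immunoprecipitate. The reverse held for 204 genes, 10.56% of the genes lower in total RNA, under the 13.7% of all genes higher in the immunoprecipitate. Core histones had a median of -1.59 in the immunoprecipitate and -3.05 in total RNA, and 29 of the 36 were lower there. Spindle genes had -1.0 and -1.38, and replication genes -0.31 and -0.80. Lysosome genes had a higher median in the immunoprecipitate, 0.50 against 0.28, with 21 of 33 higher. Translation initiation genes had a median of -0.22 there against 0.20 in total RNA, or 0.03 in total RNA without scaling. The immunoprecipitate was divided by 1.02 and 0.996 for CDK12 siRNA and by 0.869, 0.893 and 0.906 for control, which lowers its changes. Total RNA was divided by 0.887 and 0.875 for CDK12 siRNA and by 1.04 and 1.01 for control, which raises its changes. Differences between the fractions without scaling were not tested. Levels of CDKN1A changed by 0.66 ± 0.15 in the immunoprecipitate and by 2.09 ± 0.16 in total RNA. The difference of 1.43 ± 0.22 between the fractions was tested for each gene, with adjusted p = 0.00117 for this one.

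**Figure D5:**
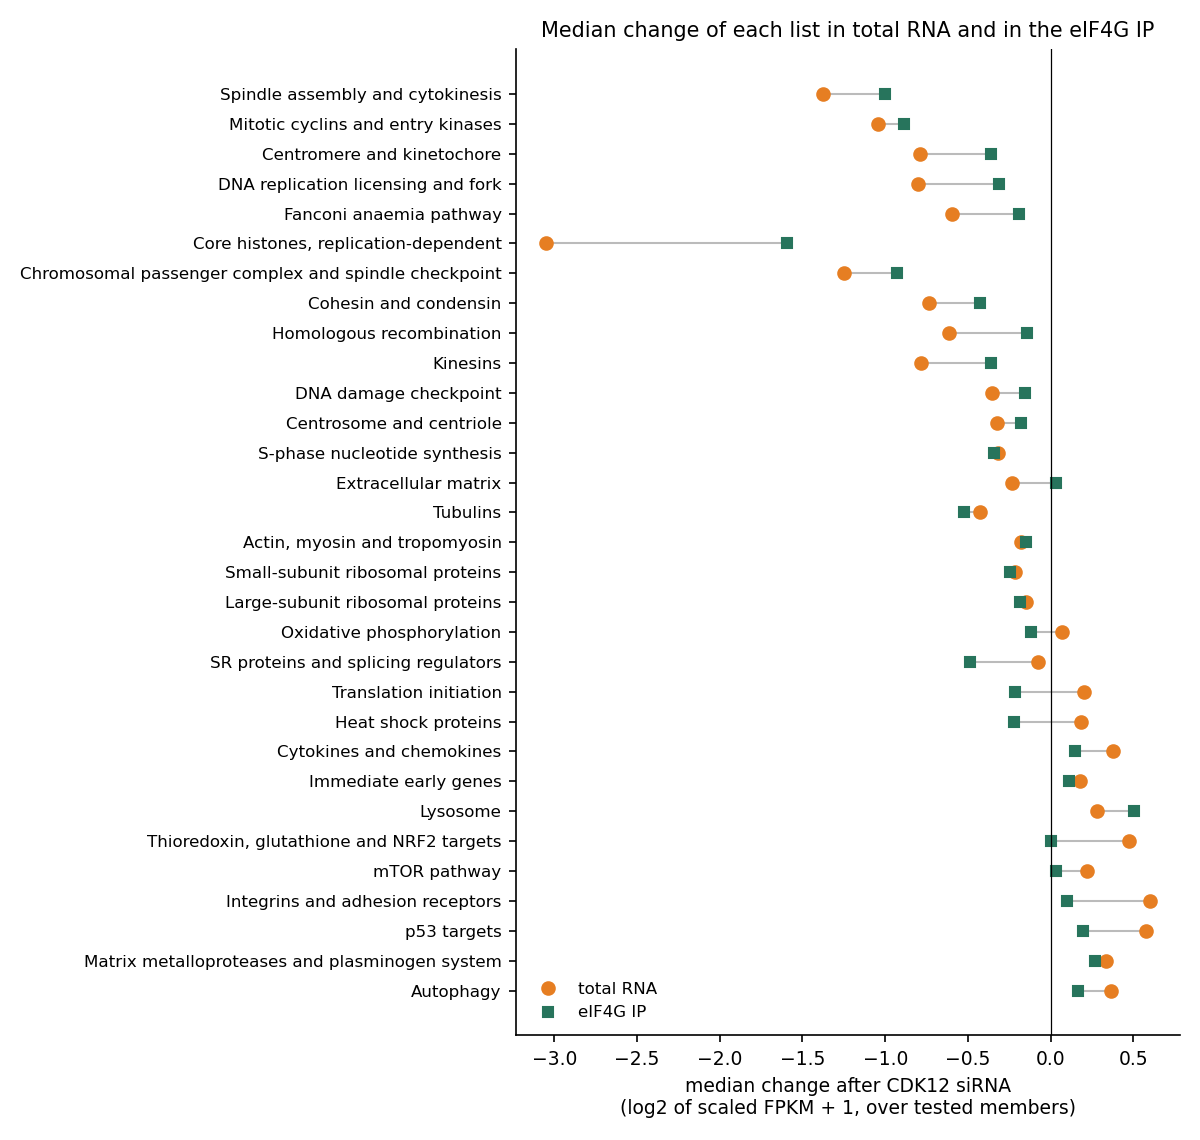
Points give the median change over the tested members of 31 lists after CDK12 siRNA, on the log2 scale of scaled FPKM + 1, in total RNA (circles) and in the eIF4G immunoprecipitate (squares). Core histones lie at -3.05 and -1.59, and autophagy genes at 0.37 and 0.16.

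The authors' deposited table marks 561 genes as changed in total RNA after CDK12 siRNA, 123 higher and 438 lower. In it every marked gene has a difference of at least 1 in mean log2(FPKM + 1), without scaling. Of the genes marked in the authors' deposited table, 553 were tested here. Of these, 104 of the higher and 390 of the lower ones passed in the same direction. All 286 genes at least 2-fold lower here are marked in the authors' deposited table, and 60 of the 164 at least 2-fold higher are not. The libraries were divided here by 0.887 and 0.875 for CDK12 siRNA and by 1.04 and 1.01 for control, which moves every change upward. A fall of at least 1 with scaling is thus also one without it, so the full overlap of falls is no separate check.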

How the data were processed

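The authors deposited FPKM per gene for each library, made with HOMER over hg19 gene bodies per the file headers, introns included, after FastQC and STAR 2.4.0k, which the submitters' processing notes name. The sources used here do not give strand use, and 8219 of 26454 genes overlap another. Each library was divided by a median-ratio factor over genes above 0 in all 13 libraries. Deposited FPKM became log2(FPKM + 1), and 9908 genes with at least 1 FPKM in 2 libraries were fitted with limma 3.58.1 (R 4.3.3; 6 groups, trended prior, 9.22 total degrees of freedom including the prior, Benjamini-Hochberg adjustment, threshold 0.05). Folds use the same scaled FPKM. On simulated data with independent noise in each library, the fit recovered 34.8% of 66 FPKM changes of 1.5-fold. It recovered 89.6% of 67 changes of 2-fold and 100% of 66 of 4-fold, and called 0.37% of unchanged genes. Scatter shared between libraries was not simulated.

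Members and lists were chosen with earlier results of these data known. The rule named a set of genes the study turns on, the 15 largest rises and falls at 5 FPKM or more, up to 5 called members of each list by smallest p and up to 2 not called, and the 5 largest changes each way of noncoding genes and of genes over 100 kb. It gave 294 called genes, of which 149 appear in the text, and genes whose calls held when libraries were left out were preferred. The authors' deposited calls rest on log2 differences without scaling. Some named genes are not reported here.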

Additional observations from a re-analysis of the deposited data

Results flagged for a closer look

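For 10 of 295 called genes, named by the rule or chosen after it, changes were called in opposite directions in total RNA and the eIF4G immunoprecipitate. Their difference between the fractions passed the limma test with Benjamini-Hochberg adjustment. Over all genes, 299 of 2308 higher in total RNA were lower in the immunoprecipitate, and 204 of 1932 lower ones were higher there. Scaling raises changes in total RNA and lowers them in the immunoprecipitate, and the differences without scaling were not tested. FOSL1 changed by 1.36 in total RNA and -0.46 in the immunoprecipitate, a difference of 1.825 ± 0.19 (SE, adjusted p = 0.000206). HSPA5, the chaperone BiP of the endoplasmic reticulum, changed by 0.57 and -0.79, a difference of 1.363 ± 0.168, and its call in total RNA was lost without scaling (0.36). EIF4G1 changed by 0.47 and -0.44, a difference of 0.9131 ± 0.16. SRPK1, a kinase of splicing factors, differed by 0.9072 ± 0.104, POLR2A by 0.7948 ± 0.0858, EIF4E by 0.772 ± 0.079, PCF11 by 0.7005 ± 0.0936 and the noncoding RNA LINC00152 by 0.6546 ± 0.0679, all higher in total RNA and lower in the immunoprecipitate. FN1 went the other way, at -0.82 in total RNA and 0.78 in the immunoprecipitate, a difference of -1.598 ± 0.133 (adjusted p = 8.07e-05). STAT2, a factor of interferon signalling, changed by -0.32 and 0.72, a difference of -1.043 ± 0.0868.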

How the results depend on the processing

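The counts moved with how low values and scaling were treated. Without scaling 1276 genes were higher and 2754 lower, with 98 higher at 2-fold. With no filter on low values 23081 genes were tested, and 5092 were higher and 3631 lower. With a mean of at least 5 FPKM in a compared group 1297 were tested, and 308 were higher and 312 lower, 70 and 124 of them at 2-fold. A pseudocount of 0.1 gave 434 higher and 817 lower at 2-fold, and quantile normalization 385 and 538. Among genes with 1 copy and no overlap, 93 were higher at 2-fold. Leaving out 1 library gave 1562 to 1763 higher and 1371 to 1554 lower genes, and 150 to 184 and 277 to 297 at 2-fold, where the lone library is taken to vary like the other groups. The causes of these shifts were not tested, beyond the number of genes tested or libraries used. Fitting the compared groups alone gave 46.3% of calls higher, against 54.4% in the report. Factors from the tested genes, a setting chosen after seeing the data, gave 2865 higher and 2094 lower genes. With the replicate number as a block, 2296 genes were higher and 1968 lower, 163 and 290 at 2-fold. Deviations of same-numbered libraries correlated at 0.0962 over genes, so the numbers were not taken as pairs. Of the 294 called genes that the rule named, 50 lost their call in at least 1 alternative, 6 of them among the 149 that appear in the text and 44 among the other 145, and none reversed. The genes in the text are thus steadier than the rule's own set. With 2 libraries a group, small changes and genes with few reads are measured poorly, and levels count intronic tags.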
